A study of Mus musculus with 59 samples.

Results

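Chaperones and folding enzymes of the lumen of the endoplasmic reticulum (ER) were examined in embryoid bodies containing spinal motor neurons after exposure to mouse serum. The set was chosen by gene symbol, with earlier results of these data known. It holds Hspa5, Hsp90b1, Calr, Pdia3, Pdia4, Pdia6, Sdf2l1, Dnajb9, Dnajb11 and Dnajc3. All 10 of these 10 genes were found among the 19613 genes of the deposited values. The indicator cells came from HBG3, a single mouse embryonic stem cell line that carries an HB9-driven green fluorescent reporter of motor neurons, and were the same in both groups. Embryoid bodies received 5% serum for 24 h, and RNA was then read on mouse exon arrays, with 1 array per sample. Carrier serum (29 arrays) came from male mice hemizygous for the human SOD1*G93A transgene, a model of amyotrophic lateral sclerosis, before symptoms. Noncarrier serum (30 arrays) came from their littermates without the transgene, and both were progeny of C57BL/6 and SJL mice. The labels give 9 weeks for 53 arrays and 10 weeks for 6. They do not say whether each array had its own donor and its own culture, so the p-values measure the spread between these arrays.

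The ER folds proteins that cells secrete or place in membranes, and unfolded proteins there switch on the sensors ATF6, IRE1 and PERK. ATF6 is cut in the Golgi and IRE1 splices the mRNA of XBP1, and the resulting transcription factors raise the chaperones of the ER lumen. PERK phosphorylates eIF2 alpha, which slows translation in general but favours that of ATF4, a factor that turns on amino acid synthesis, amino acid transport and stress genes. ATF4 is also made when amino acids or heme are short, so its targets and the lumen chaperones need not move together. Motor neurons are among the cells in which mutant SOD1 is known to provoke these pathways.

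In the promoters, the known binding site of ATF6 together with NF-Y is the ER stress element, CCAAT and CCACG separated by 9 bases of any kind, searched here on both strands. RefSeq promoters (GRCm38.p6, 250 bases before to 50 after the start) were matched for 10 of the 10 genes. The full element was present in 5 of the 10, Hspa5, Hsp90b1 (with 2 elements), Calr, Pdia6 and Dnajc3, and in 0.119% of all 32851 promoters of that table. The CCAAT part alone occurred in 10 of the 10 and in 37.4% of all promoters, and the CCACG part in 9 of the 10, Pdia3 being the exception, and in 32.8% of all promoters. The second ER stress element, ATTGG and CCACG separated by 1 base, was found in Dnajb11 only, from base 8 to base 18 after the start, and in 0.0365% of all promoters. Where that element lies, its ATTGG is also counted as a CCAAT part on the opposite strand. These matches are descriptions of letters in these windows. The 5 promoters with the full element are shown first, since they hold the full motif. Those of Pdia4 and Dnajb9 follow, because these genes moved with serum or with Atf4 in the arrays without having the full element in the window. Each stretch runs 5′ to 3′ on the strand of the gene and ends at the base before the start. Capitals mark both parts of each element (CCAAT and CCACG, or CGTGG and ATTGG where it lies on the opposite strand), and for the last pair the parts that occur alone.
Hspa5 (chr2:34772005-34772089, plus strand): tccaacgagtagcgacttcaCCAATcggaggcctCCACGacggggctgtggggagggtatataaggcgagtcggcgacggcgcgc
Hsp90b1 (chr10:86705445-86705676, minus strand): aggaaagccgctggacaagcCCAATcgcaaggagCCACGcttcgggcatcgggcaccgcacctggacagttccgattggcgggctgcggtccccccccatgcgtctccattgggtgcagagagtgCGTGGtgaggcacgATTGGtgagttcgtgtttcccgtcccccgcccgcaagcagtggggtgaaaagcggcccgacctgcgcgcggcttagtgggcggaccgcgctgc
Calr (chr8:84846932-84847113, minus strand): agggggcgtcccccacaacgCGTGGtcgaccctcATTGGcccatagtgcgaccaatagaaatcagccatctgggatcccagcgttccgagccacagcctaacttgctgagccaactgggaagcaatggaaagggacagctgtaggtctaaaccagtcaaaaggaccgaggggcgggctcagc
Pdia6 (chr12:17266471-17266588, plus strand): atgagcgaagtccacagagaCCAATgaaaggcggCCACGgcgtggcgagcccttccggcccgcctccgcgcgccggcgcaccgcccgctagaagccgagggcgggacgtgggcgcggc
Dnajc3 (chr14:118937807-118937931, plus strand): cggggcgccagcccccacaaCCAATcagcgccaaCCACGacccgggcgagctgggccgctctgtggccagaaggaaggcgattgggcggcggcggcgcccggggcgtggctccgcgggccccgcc
Pdia4 (chr6:47813513-47813632, minus strand): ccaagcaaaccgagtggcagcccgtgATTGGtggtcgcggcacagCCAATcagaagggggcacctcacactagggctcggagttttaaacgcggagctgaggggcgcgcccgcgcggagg
Dnajb9 (chr12:44210069-44210188, minus strand): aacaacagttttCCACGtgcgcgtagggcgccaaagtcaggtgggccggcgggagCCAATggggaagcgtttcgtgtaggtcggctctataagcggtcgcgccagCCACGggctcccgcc

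Intensities were deposited as linear values and were taken to log2 here with 0 added. Titles with a common name or a close range of numbers were grouped into 9 runs, named motorneuron, HB9MNs and 10wk after their titles and A to F where the titles give only numbers. Array medians of the intensity ran from 151 to 183 for carrier and from 153 to 177 for noncarrier serum. Of the motor neuron genes used by the study, Isl1 lay between 10.29 and 10.82, Olig2 between 8.30 and 9.35, Mnx1 between 8.35 and 9.21 and Lhx3 between 8.31 and 9.46 in log2 intensity. One library stood apart: noncarrier replicate 1 of the motorneuron run had an Atf4 value of 9.80, against 10.47 to 10.51 on the other noncarrier arrays of that run. On the same array 9 of the 10 chaperones had their lowest value of the 7 arrays of the run, all but Sdf2l1. The slopes of the members on Atf4 whose call it changed are given with and without it. Changes in bulk RNA cannot tell fewer cells of a type from less RNA per cell.

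With carrier serum, 3 of the 10 lumen chaperones were higher than with noncarrier serum: Hspa5, Hsp90b1 and Pdia4. The rises were of 6.06 to 6.99% (limma with the run as a block, adjusted p over all genes below the threshold of 0.05), and no member was called lower. Over all genes 0.683% were called higher and 1.65% lower. Since the set was chosen with earlier results known, this contrast is a description. The fitted change was above 0 for 9 of the 10 members, the exception being Dnajb9, and for 61.1% of all genes. The median change was 0.058 on the log2 scale for the members and 0.016 for all genes. Atf4 moved the other way, falling by 0.25 ± 0.051 (SE, adjusted p = 0.00329), and was lower in 8 of the 9 runs. The values of all 10 members overlapped between the sera over the 59 arrays.

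**Figure D1:**
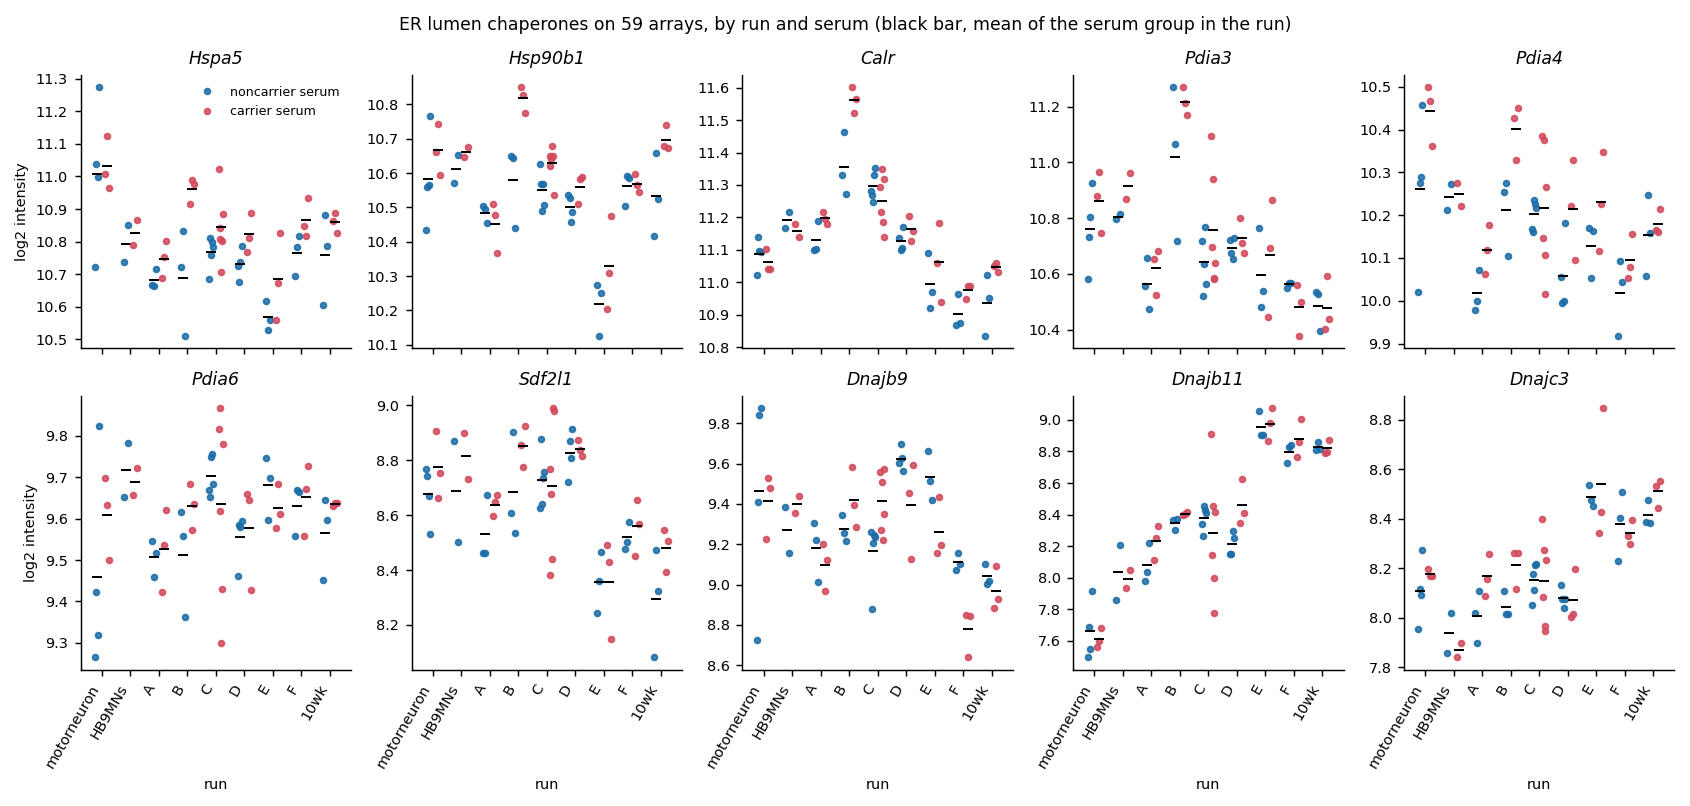
Log2 intensity (vertical axis) of each of the 10 chaperones on each of the 59 arrays, by run (horizontal axis) and serum (blue, noncarrier; red, carrier). Black bars are the means of a serum group in a run. Runs differ more than sera for most genes, as for Dnajb11, with run means from 7.64 in motorneuron to 8.96 in run E.

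Hspa5 encodes BiP, the Hsp70 of the ER lumen, which binds unfolded chains and keeps the sensors inactive when folding capacity is ample. With carrier serum its log2 intensity lay between 10.56 and 11.13, with a median of 10.84 (n = 29). With noncarrier serum it lay between 10.51 and 11.28, with a median of 10.74 (n = 30). The carrier mean was the higher one in 9 of the 9 runs, by 0.024 in motorneuron to 0.27 in run B, while the groups overlapped in every run but B. The fitted change was 0.097 ± 0.026 (SE, 95% confidence interval 0.045 to 0.15, 6.99% higher, adjusted p = 0.0313).

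Hsp90b1 encodes GRP94, the Hsp90 of the lumen, which folds integrins and Toll-like receptors among others. It lay between 10.20 and 10.85 with carrier serum (median 10.62) and between 10.13 and 10.77 with noncarrier serum (median 10.53). Carrier arrays lay above all noncarrier arrays in runs B and 10wk. The mean was higher with carrier serum in 8 of 9 runs, and lower by 0.032 in run A. The fitted change was 0.085 ± 0.022 (SE, 95% confidence interval 0.042 to 0.13, adjusted p = 0.0228). This was the smallest adjusted p of the set.

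Calr encodes calreticulin, the soluble lectin that holds newly made glycoproteins, in a cycle with its membrane-bound relative calnexin. Calr lay between 10.94 and 11.60 with carrier serum (median 11.16) and between 10.84 and 11.46 with noncarrier serum (median 11.10). Its change was 0.044 ± 0.019 (SE, adjusted p = 0.188), with the carrier mean higher in 6 of 9 runs. Calr thus did not pass the threshold over all genes. Its 95% confidence interval of 0.0055 to 0.083, not adjusted for the number of genes, lay above 0. So did that of Pdia3 (0.0019 to 0.14), and 20.7% of all genes had an unadjusted p below 0.05.

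Among the protein disulfide isomerases, which form and reshuffle disulfide bonds, only Pdia4 (ERp72) passed the test. Pdia4 lay between 10.02 and 10.50 with carrier serum (median 10.22) and between 9.92 and 10.46 with noncarrier serum (median 10.16). Its change was 0.094 ± 0.026 (SE, 95% confidence interval 0.042 to 0.15, adjusted p = 0.0363), with the carrier mean higher in 9 of 9 runs. Pdia3 (ERp57), the partner of calreticulin and calnexin, had a change of 0.069 ± 0.034 (SE, adjusted p = 0.229). Pdia6 (P5), which also attenuates the IRE1 sensor, had a change of 0.024 ± 0.032 (SE, adjusted p = 0.675). Both overlapped between the sera, and the carrier mean was higher in 7 of 9 runs for Pdia3 and in 6 of 9 for Pdia6.

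The partners of BiP did not pass the test. Sdf2l1, which forms a complex with Dnajb11, changed by 0.069 ± 0.036 (SE, adjusted p = 0.262). Dnajb11 (ERdj3), a soluble J-domain protein that hands substrates to BiP, changed by 0.033 ± 0.043 (SE, adjusted p = 0.664). Dnajc3 (p58IPK), a J-domain protein known as an inhibitor of PERK, changed by 0.046 ± 0.029 (SE, adjusted p = 0.353). Dnajb9 (ERdj4), the J-domain protein that brings BiP to the IRE1 sensor and aids ER-associated degradation, had the only negative value, -0.040 ± 0.053 (SE, adjusted p = 0.671). It lay between 8.64 and 9.60 with carrier serum (median 9.27) and between 8.72 and 9.87 with noncarrier serum (median 9.25).

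**Figure D2:**
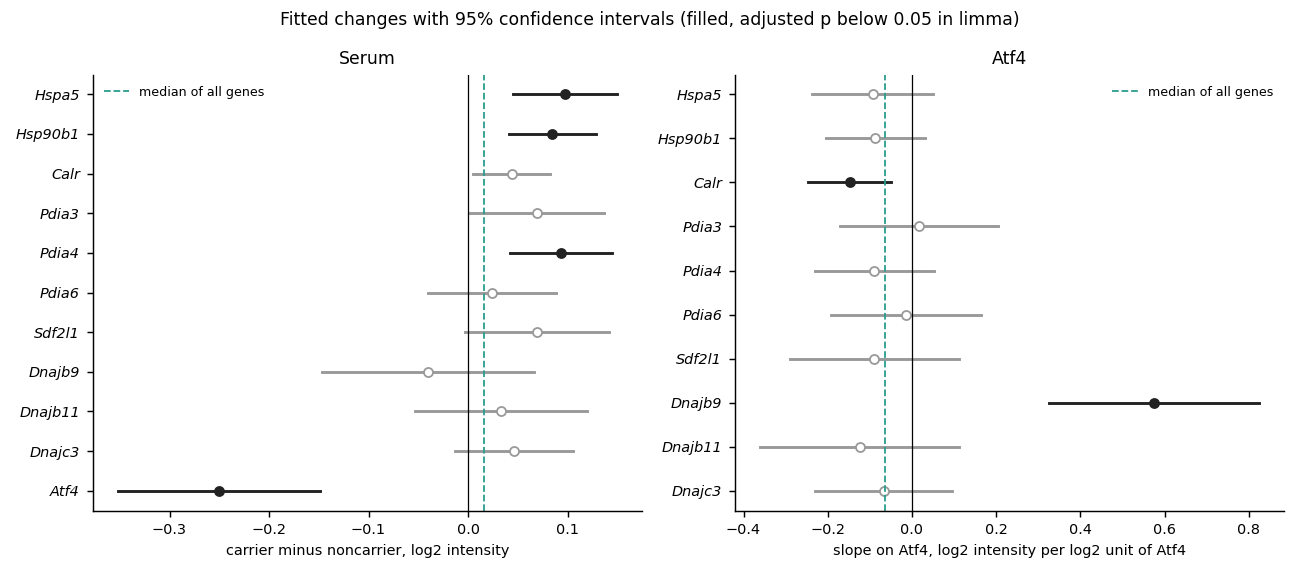
Fitted values and 95% confidence intervals for carrier minus noncarrier serum (left, log2 intensity) and for the slope on Atf4 within runs and sera (right, log2 units per log2 unit of Atf4). Filled points passed an adjusted p of 0.05 over all genes, and dashed lines mark the median of all genes. Hspa5, Hsp90b1 and Pdia4 lay above 0 for serum, Atf4 below it, and Dnajb9 stood apart for the slope.

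These calls lay close to the threshold. Leaving out single runs left between 0 and 4 members called, with 0 left without run B, run D or run 10wk. Calls over all genes changed as well, from 457 with all runs to 168 without run B and 113 without run 10wk. They were also fewer without run D. Without run C, where 4 members were called, 1601 genes were called over all. Without motorneuron the counts parted, with 2 members and 602 genes called. Without run A, E or F only Hsp90b1 remained called. Over the runs whose absence ended a call, the adjusted p lay between 0.0634 and 0.121 for Hspa5, between 0.0795 and 0.0987 for Hsp90b1 and between 0.0572 and 0.161 for Pdia4, and the changes between 0.067 and 0.10. Of the single arrays, noncarrier replicate 28 ended the call of Hspa5 when left out (0.091, adjusted p = 0.0522). The call of Pdia4 was lost without any 1 of 12 arrays, carrier replicates 1, 2, 11, 19, 23 and 26 and noncarrier replicates 12, 19, 20, 23, 25 and 28, with adjusted p between 0.0502 and 0.0632. Hsp90b1 kept its call whichever single array was left out (adjusted p at most 0.0392). The signs of Hspa5, Hsp90b1 and Pdia4 stayed positive in each of 81 other settings of the fit.

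The study corrects for batches through the motor neuron genes Olig2, Mnx1, Isl1 and Lhx3. With these 4 genes as covariates beside the run, the change of Hspa5 was 0.046 (adjusted p = 0.199), that of Hsp90b1 0.048 (adjusted p = 0.122) and that of Pdia4 0.040 (adjusted p = 0.264). In that fit Sdf2l1 was called higher (0.14, adjusted p = 0.00474) and Dnajb9 lower (-0.17, adjusted p = 0.0213). The fit called 6126 of 19613 genes over all, against 457 with the run alone. Which members were called thus depended on whether the 4 motor neuron genes were in the model, as did the number called over all genes. With each array centred on its median, none of the 10 was called (448 genes over all), and the changes of Hspa5, Hsp90b1 and Pdia4 were 0.090, 0.078 and 0.086, with adjusted p between 0.0731 and 0.0775. Of the genes called over all, 29.3% were higher with carrier serum, and 40.5% after quantile normalization, which called the same 3 chaperones.

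Run by run, the chaperones stood out in run B. There, 10 of the 10 members had a higher mean with carrier serum, with a median change of 0.18, and the change of Atf4 was -0.65. For 6 members, Hspa5, Hsp90b1, Calr, Pdia4, Dnajb11 and Dnajc3, the 3 carrier arrays lay above the 3 noncarrier arrays, as did 5.27% of all genes in that run. Calr read 11.60, 11.52 and 11.56 on the carrier arrays of run B and 11.33, 11.46 and 11.27 on the noncarrier arrays. Hspa5 read 10.91, 10.99 and 10.98 against 10.72, 10.83 and 10.51.

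In run C, the largest with 11 arrays, the median change of the members was 0.0053, with 5 of 10 above 0, and the change of Atf4 was 0.065. In runs D, E and F, Atf4 changed by -0.50, -0.51 and -0.46, while the median of the members was 0.035, 0.059 and 0.031. In the other runs the members whose groups did not overlap were few: Hsp90b1 and Calr were higher in 10wk (9.79% of all genes), Pdia3 in HB9MNs (17.2%) and Dnajb11 in D (10.1%). Dnajb9 was lower in F (13.1% of all genes). No member stood apart in motorneuron, A, C or E, where 0.311 to 8.61% of all genes did in a given direction. Of the 90 changes by member and run, 65 were above 0.

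Dnajb9 had a higher carrier mean in 3 runs and a lower one in 6. Its change was 0.15 in run B and 0.25 in run C, but -0.23 in D, -0.27 in E and -0.33 in F, with a standard error of 0.11 to 0.15 in each of these runs. In run F its carrier arrays, with a mean of 8.78, all lay below the noncarrier arrays, with a mean of 9.11. A test of the difference itself, limma's F test of the serum-by-run terms, did not call Dnajb9 (adjusted p = 0.663). It called 0 of the 10 members, against 0.127% of all genes, and at an unadjusted p below 0.05 it held 1 member, Calr, as it did 7.94% of all genes. Atf4 had an adjusted p of 0.0721 in that test.

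**Figure D3:**
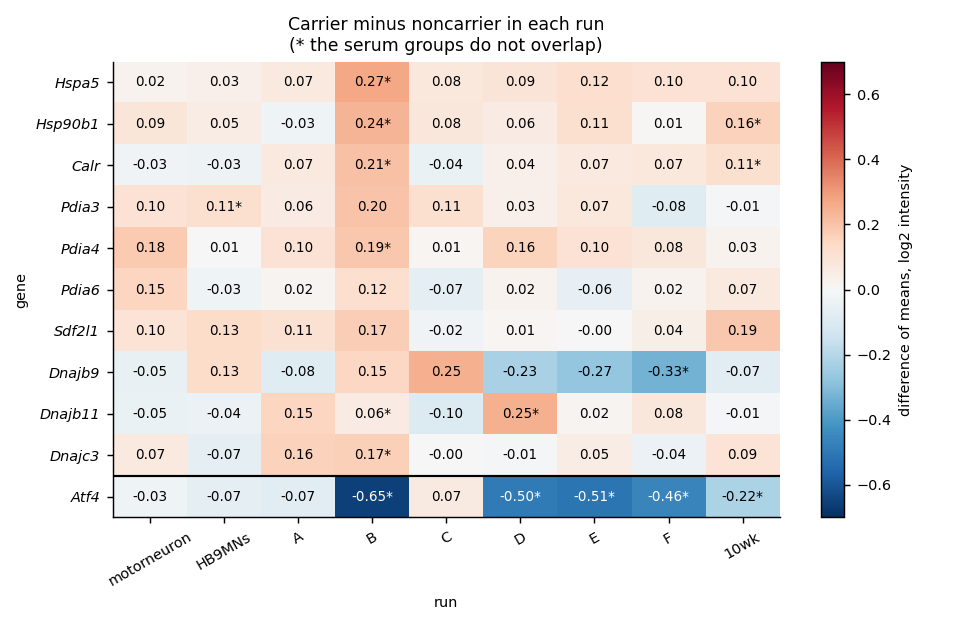
Difference of the carrier and noncarrier means (colour and number, log2 intensity) for the 10 chaperones and Atf4 (rows) in the 9 runs (columns). Asterisks mark differences where the serum groups do not overlap. Run B is positive for all 10 chaperones, and Dnajb9 is negative in runs D, E and F.

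Differences between runs were larger than those between sera. The F test of the run terms called 9 of the 10 members, all but Pdia6 (adjusted p = 0.120), as it did 94.0% of all genes. Of the variance of a member, 61.3% (median) lay between runs, and for a gene overall 62.5% did. Dnajb11 ranged most, with run means of 7.64 ± 0.14 (SD, n = 7) in motorneuron and 8.96 ± 0.088 (SD, n = 6) in run E. Runs E, F and 10wk had its 3 highest means, and F, at 8.84 ± 0.096, and 10wk, at 8.82 ± 0.032 (SD, n = 6 each), differed by less than their spread. The same 3 runs held the highest means of Dnajc3, led by run E at 8.51 ± 0.17.

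The other members ordered the runs differently. Hspa5 was highest in motorneuron, at 11.02 ± 0.17 (SD, n = 7), and lowest in run E, at 10.63 ± 0.11 (SD, n = 6), while its means in 10wk, C, HB9MNs, F and B lay between 10.81 and 10.82 and so did not differ beyond their spread. Calr was highest in run B, at 11.46 ± 0.13, and lowest in run F, at 10.94 ± 0.054 (SD, n = 6 each). Pdia3 likewise was highest in run B, at 11.12 ± 0.21, and lowest in 10wk, at 10.48 ± 0.081. Sdf2l1 was highest in D and lowest in E, the run in which Dnajb11 and Dnajc3 were highest.

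Within runs and sera most pairs of chaperones were positively correlated from array to array, while most pairs with Sdf2l1 were not. The r over pairs of all genes was not computed. The arrays include noncarrier replicate 1 of motorneuron, lowest in its run for 9 of the 10 members, all but Sdf2l1. No r without it was computed, and ranks gave lower values for some pairs, as for Hspa5 with Hsp90b1 (r = 0.65, rho 0.39). Each value was centred on the mean of its run and serum, and Pearson's r was taken over the 59 arrays, which share the array itself as a source of common variation. Of the 45 pairs 38 were positive, with a median of 0.38. The 36 pairs without Sdf2l1 were all positive, from 0.12 to 0.82, with a median of 0.51. The highest was Pdia4 with Pdia6 (r = 0.82, Spearman's rho 0.77), followed by Hspa5 with Pdia4 (r = 0.76, rho 0.66) and Dnajb11 with Dnajc3 (r = 0.71, rho 0.64). Of the 9 pairs with Sdf2l1 only 2 were positive, with Calr (r = 0.28) and with Pdia6 (r = 0.021), and the lowest was with Pdia3 (r = -0.44).

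Against the mean of the other members, Pdia4 followed most closely (r = 0.88), then Hspa5 (0.83) and Pdia6 (0.80), while Dnajb9 reached 0.37 and Sdf2l1 -0.21. Dnajb9 had r = 0.32 and rho 0.012 with Pdia4, and r = 0.44 and rho 0.11 with Hspa5. Outside the set, the gene most like the mean of the members was Copb2, a subunit of the coat of vesicles that return from the Golgi to the ER (r = 0.82 over 59 arrays). The next were Prpf38a, a splicing factor (0.82), Psmd12, a subunit of the proteasome lid (0.80), Pdha1 of pyruvate dehydrogenase (0.80), Cacybp (0.79) and Gap43, a growth cone protein (0.79). Ahsa2, Hnrnpf, Srpk1 and Arl6ip1 completed the 10 most alike, each at 0.78. Their adjusted p in the serum fit lay between 0.131 and 0.969.

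**Figure D4:**
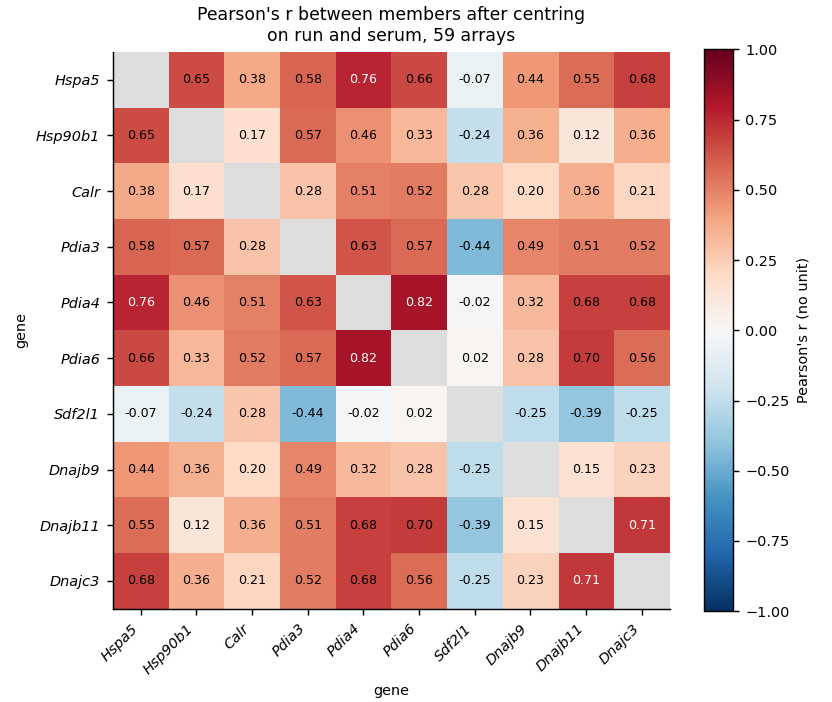
Pearson's r between each pair of the 10 chaperones (rows and columns, no unit) over 59 arrays after centring on run and serum. The row of Sdf2l1 is blue against most others, whereas the remaining 36 pairs are all above 0, up to 0.82 for Pdia4 with Pdia6.

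Set against Atf4 within runs and sera, 1 of the 10 members had a called positive slope and 1 a called negative slope. These counts were near the shares over all genes. The slope on Atf4, fitted with run and serum in the model, was positive and called for Dnajb9, at 0.58 ± 0.12 log2 units per log2 unit of Atf4 (SE, adjusted p = 0.00201), as for 6.89% of all genes. It was negative and called for Calr, at -0.15 ± 0.049 (SE, adjusted p = 0.0381), as for 7.07% of all genes, and was -0.085 (adjusted p = 0.226) with each array centred on its median. The other 8 slopes lay between -0.12 and 0.017 and were not called. The median slope was -0.088 for the members and -0.063 for all genes, and the all-gene median was -0.025 after centring arrays on their medians and -0.012 after quantile normalization. Both fits use the same arrays, so the slopes are not independent of the serum changes.

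The array with the lowest centred Atf4 decided part of this. Without noncarrier replicate 1 of motorneuron, the slope of Dnajb9 was 0.39 (adjusted p = 0.0700) and no longer called. With all arrays the slopes of Hspa5 and Pdia4 were -0.093 (adjusted p = 0.350) and -0.089 (adjusted p = 0.360). Without noncarrier replicate 1 they were -0.25 (adjusted p = 0.0294) and -0.25 (adjusted p = 0.0177), both called negative. Centring each array on its median, with no array left out, gave -0.022 for each (adjusted p = 0.841 and 0.839). The call of Calr was lost without any 1 of 9 other arrays, carrier replicates 2, 5, 11 and 16 and noncarrier replicates 10, 12, 17, 23 and 28, with adjusted p up to 0.0937, and without run HB9MNs, B, C, D, F or 10wk (adjusted p between 0.0559 and 0.252). On noncarrier replicate 1, Dnajb9 read 8.72 against 9.41, 9.84 and 9.87 on the other noncarrier arrays of the run, and Hspa5 10.72 against a lowest value of 10.96 among the carrier arrays.

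Correlations of the centred values differed between Pearson's r and ranks. The 10 members were each related to Atf4, with 100000 permutations within runs and sera and two-sided p-values. These permutation p-values, for r and for rho, were not adjusted for the number of relations. Dnajb9 gave r = 0.57 (permutation p = 0.00509) and rho = 0.41 (permutation p = 0.00443), and r = 0.37 over the 57 arrays left without the 2 of most extreme Atf4. Calr gave r = -0.16 (permutation p = 0.400) and rho = -0.34 (permutation p = 0.0353), and r = -0.46 over those 57 arrays. Pdia4 gave r = -0.059 (permutation p = 0.789) and rho = -0.38 (permutation p = 0.0139), and r = -0.29 over the 57. Hspa5 gave r = -0.0030 (permutation p = 0.991) and rho = -0.28 (permutation p = 0.0893), and r = -0.26 over the 57. For the remaining 6 members r lay between -0.14 and 0.045 and rho between -0.21 and 0.030, and the lowest permutation p was 0.160. Over all genes the median r was -0.098, with 90% of them between -0.41 and 0.42, and over 26 targets of ATF4 and CHOP the median was 0.48.

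Taken run by run in the 8 runs of at least 6 arrays, the r of Dnajb9 with Atf4 was positive in 6 and spanned -0.26 to 0.95. That of Calr, of Hspa5 and of Pdia4 was negative in 6 of 8. In motorneuron, which holds the lone array, Hspa5 had r = 0.79 and Pdia4 r = 0.73, whereas in run E they had -0.89 and -0.91. In run C, with 11 arrays, the values were 0.49 for Hspa5, -0.045 for Calr and 0.41 for Dnajb9. With 6 to 11 arrays per run these values are descriptions.

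**Figure D5:**
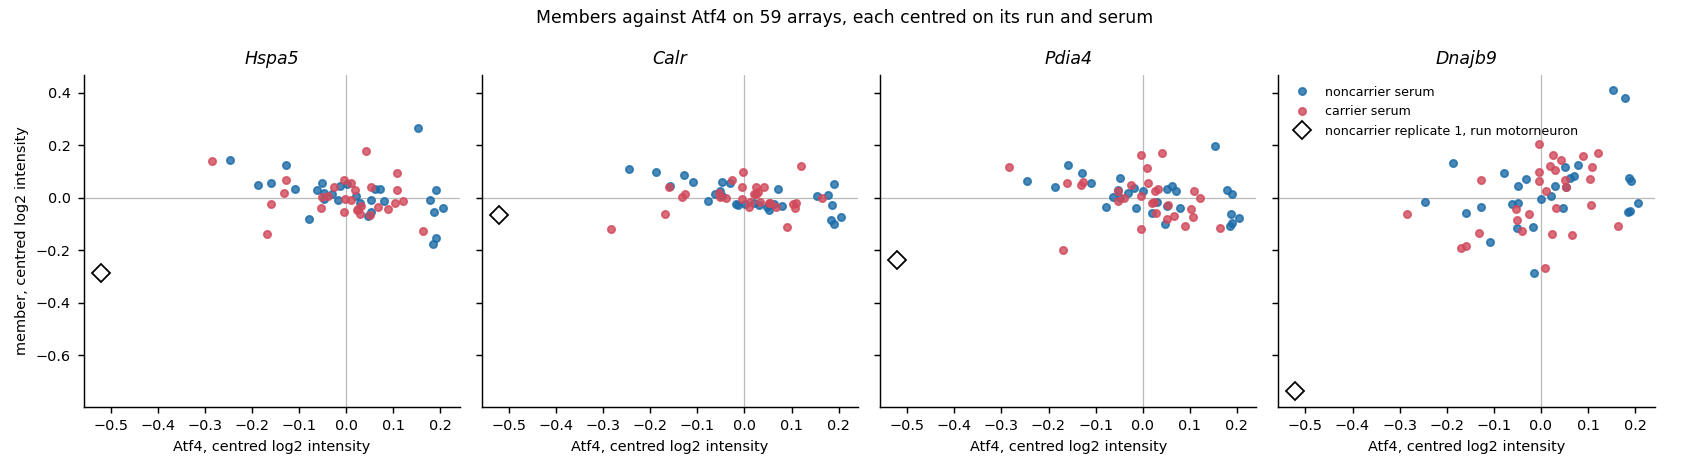
Centred log2 intensity of Hspa5, Calr, Pdia4 and Dnajb9 (vertical axes) against that of Atf4 (horizontal axes) on 59 arrays, coloured by serum. The diamond is noncarrier replicate 1 of the motorneuron run, at an Atf4 value 0.52 below its group mean. Dnajb9 rises with Atf4 (r = 0.57). For Hspa5 and Pdia4 the cloud falls to the right once the diamond is set aside. Their slopes are then -0.25 each, against -0.093 and -0.089 with it.

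No gene of the other ER lists was called higher, where 0.683% of all genes were called higher and 1.65% lower. Of 21 other lumen and redox proteins, all matched, 0 were called higher and 2 lower: Txndc5, a disulfide isomerase, fell by 0.10 ± 0.023 (SE, adjusted p = 0.00745), and P4hb, the founding disulfide isomerase PDI, fell by 0.097 ± 0.019 (SE, adjusted p = 0.00239). Both were lower with carrier serum in 9 of 9 runs. Of that list 4 genes passed an unadjusted p of 0.05, as did 20.7% of all genes, the share against which the like counts of the lists that follow are read, and the list's median change was 0.00017, against 0.016 over all genes. The membrane lectin Canx, at 0.0051 ± 0.026, and Hyou1, the large nucleotide exchange factor of BiP, at 0.0065 ± 0.018, had changes smaller than their errors. Manf, at 0.029 ± 0.031, and Creld2, at -0.050 ± 0.033, are secreted ER stress genes and were not called (adjusted p = 0.588 and 0.375).

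Of 24 genes of the translocon, of export and of ER-associated degradation, 21 were matched, and 2 were called lower and 0 higher. Herpud1, which organises the degradation complex and holds the second ER stress element in its promoter, fell by 0.30 ± 0.058 (SE, adjusted p = 0.00282) and had the steepest slope of these genes on Atf4, 1.06 ± 0.068 (SE, adjusted p = 7.25e-17). Sel1l, the partner of the ligase Syvn1, fell by 0.080 ± 0.023 (SE, adjusted p = 0.0436). The call of Sel1l was kept in 29 of 59 fits that left out a single array and in 2 of 9 that left out a run, with adjusted p of up to 0.196. Of 13 sensors and transcription factors 12 were matched, Atf6 not among them. None of these was called by serum, with 3 at an unadjusted p below 0.05. Xbp1 changed by 0.035 ± 0.017 (SE, adjusted p = 0.247), Ern1, which encodes IRE1, by -0.015 ± 0.018 and Eif2ak3, which encodes PERK, by 0.0086 ± 0.024.

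The targets of ATF4 and CHOP held the most called genes of these lists. Of 26 matched targets 22 were called lower and 0 higher, with a median change of -0.24, and 23 had a called positive slope on Atf4. The largest falls were in Slc7a11, the cystine transporter (-0.46), Chac1, which degrades glutathione (-0.43), Atf3 (-0.39), Mthfd2 of folate metabolism (-0.39) and Slc7a5, an amino acid transporter (-0.32). This list was written with earlier results of these arrays known and is not independent evidence of its direction. The slope of Dnajb9 was 0.58, and 0.39 (limma adjusted p = 0.0700) without noncarrier replicate 1 of motorneuron. Over all arrays the median slope was 0.73 for these targets and -0.088 for the chaperones. Whether Dnajb9 belongs with these targets was not tested.

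Markers of other cells were read beside these results. All 8 markers of endoderm, a secretory tissue that embryoid bodies can hold, had changes above 0 (median 0.051), with 0 called and 2 at an unadjusted p below 0.05. Their mean log2 level ranged from 6.02 to 6.93 with carrier serum and from 5.92 to 6.81 with noncarrier serum. With that mean as a covariate, added after the data were seen, the same 3 chaperones were called. Over all, 376 genes were called in that fit, against 457 without the covariate. Of 5 pluripotent cell markers 4 had changes above 0 (median 0.11) with 0 called and 2 at an unadjusted p below 0.05, and their mean ranged from 5.57 to 6.51 with carrier and from 5.64 to 6.36 with noncarrier serum. With that mean as a covariate, also added after the data were seen, 1 chaperone, Pdia4, was called, among 191 genes over all. In that fit Hspa5 had a change of 0.097 (adjusted p = 0.0623) and Hsp90b1 of 0.078 (adjusted p = 0.0642).

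Of 6 mesenchyme markers 5 had changes above 0 (median 0.064), with 0 called and 2 at an unadjusted p below 0.05, and their mean ranged from 6.28 to 7.23 with carrier and from 6.31 to 7.20 with noncarrier serum. Among 6 matched motor neuron genes only Slc5a7, the choline transporter, was called (0.15 ± 0.042, adjusted p = 0.0410), a call kept in 35 of 59 fits without a single array and in 2 of 9 without a run, and their mean ranged from 8.96 to 9.46 with carrier and from 8.95 to 9.42 with noncarrier serum. Of 3 matched progenitor genes 0 were called, with Olig2 at -0.085 ± 0.029 (SE, adjusted p = 0.0936) the only 1 at an unadjusted p below 0.05. The 2 matched red blood cell markers had changes of 0.0012 and 0.017. The part of the mesenchyme and motor neuron genes as lists in the rise of Hspa5, Hsp90b1 and Pdia4 was not tested.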

How the data were processed

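RNA of embryoid bodies was measured on 59 mouse exon arrays, 29 after carrier and 30 after noncarrier serum. For gene values, the authors' methods describe RMA in aroma.affymetrix, the mean over the exons of a gene, and removal of outlying arrays by Grubbs' test beforehand. The submitters' processing notes name Affymetrix Expression Console and RMA. Which of these made the deposited intensities is not given in the sources used here. The values are linear and carry symbols only. The genome build of the array annotation is not given in the sources used here. No batch correction is visible in them. Joint quantile normalization can shrink shifts shared by many genes, and the number of arrays limits the precision.

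Log2 intensities (pseudocount 0) were analysed in limma 3.58.1 (lmFit, eBayes) under R 4.3.3. Serum was fitted with the run as a block, the slope on Atf4 with run and serum, and run and serum-by-run terms by F tests. The limma tests were two-sided, with Benjamini-Hochberg adjustment over 19613 genes (19612 for Atf4) and a threshold of 0.05. No gene was filtered out. Runs were read from the titles and may merge batches, as in run C. Correlations used 100000 permutations in Python, with p-values not adjusted. Alternatives covered the block, the 4 motor neuron genes as covariates, scaling, dim genes, an offset of 50, the variance model, array weights, and arrays and runs left out. The procedure was tested on simulated data. Named genes were all members, Atf4, the study's 4 motor neuron genes, at most 5 called genes per list and direction, and the 10 genes most like the members' mean. Hyou1, Canx, Manf, Creld2, Xbp1, Ern1 and Eif2ak3 are named outside that rule, for their known roles, and Slc5a7, Hspa9, Hspd1, Hspa8 and Hsph1 after their values were seen. The members and lists were chosen with earlier results of these data known.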

Additional observations from a re-analysis of the deposited data

Results flagged for a closer look

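In serum groups of 4 to 10 arrays within a run, a value whose gap to its nearest neighbour took up most of the range of its group was looked for in the 10 chaperones and Atf4. It was found in 3 of 44 combinations of a gene and a group, where chance gives about 1 in 20. Combinations of the same group share their arrays and are not independent. Pdia6 read 9.46 on noncarrier replicate 18 of run D, against 9.58 to 9.59 on the other noncarrier arrays of that run. Dnajb9 read 8.88 on noncarrier replicate 14 of run C, against 9.21 to 9.26 on the other 4. Atf4 read 9.80 on noncarrier replicate 1 of the motorneuron run, against 10.47 to 10.51, and this is the array on which the call of Dnajb9 with Atf4 rests.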

How the results depend on the processing

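The median serum change of the members stayed positive, at 0.018 to 0.071, in each of 81 other settings. The number of members called by serum was 3, with 457 genes called over all. With no block it was 0 (0 over all), and with arrays centred on their median 0 (448 over all). With array weights it was 5 (2803 over all), Calr and Sdf2l1 joining. Runs E and F alone gave 0 (17 over all), and the arrays without runs E and F also gave 0 (59 over all). With the 4 motor neuron covariates 2 different genes were called (6126 over all). Among alternatives chosen after seeing the data, the number of members was 0 with Atf4 as a covariate, which left 0 genes called over all. With the mean of the pluripotent markers the number of members was 1 (191 over all). It ranged from 0 to 4 over runs left out and from 1 to 3 over arrays left out. The number called with Atf4 was 2, with 2738 genes called over all. It was 1 with no block (4161 over all) and 1 with arrays centred (5337 over all). It was 0 in runs E and F alone (2 over all) and 5 with serum left out of the model (5738 over all). It ranged from 1 to 3 over runs and over arrays left out. The median slope on Atf4 was 0.019 with no block and -0.41 in runs E and F alone, where the slopes of Calr and Dnajb9 were 0.035 and -0.068. Canx changed by -0.070 (adjusted p = 0.0201) with the 4 covariates, and Atf3 by 0.0043 with Atf4 as a covariate. The cause of these shifts was not tested, beyond the fewer arrays in runs E and F. The serum-by-run test called 0 members and the run test 9 to 10 in all 67 alternatives run for them. Where titles number the arrays within a run, r between the deviations of arrays of the same number ran from -0.13 to 0.33 over the 3 pairs of motorneuron and the 3 of 10wk and was not above 0.1 in every pair, and the fit with that number as a replicate block called the same 3 members with a median change of 0.058.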

Other observations

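Heat shock proteins outside the ER were also measured. Of 14 matched genes, Hspa9, the mitochondrial Hsp70, was the only called one and was lower with carrier serum by -0.15 ± 0.038 (SE, limma adjusted p = 0.0250), with a slope on Atf4 of 0.55 ± 0.072. Its serum call was kept in each of 59 fits without a single array and in 3 of 9 without a run. The median change of the list was 0.022, with 10 above 0. In their array-to-array variation within runs and sera several of them were close to the mean of the ER chaperones. Hspd1, the mitochondrial Hsp60, had r = 0.71, the cytosolic Hspa8 r = 0.69 and Hsph1 r = 0.68 over 59 arrays, which places Hspd1 at rank 79 and Hsph1 at rank 161 among all genes.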
